A study of Danio rerio with 8 samples.

Results

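The Sox genes encode transcription factors that bind DNA through an HMG box and fall into subgroups with different roles. In the developing vertebrate retina, SoxB1 factors mark and maintain neural progenitors, SoxC factors act in cells that leave the cycle and begin to differentiate as neurons, and the SoxE factor Sox9 is used by progenitors, by Müller glia, by pigment epithelium and by the cartilage and neural crest cells around the eye. Loss of SOX2 in humans is a known cause of absent or small eyes, and mouse retinas that lack Sox4 and Sox11 lose most of their ganglion cells. Many zebrafish Sox genes exist as a and b copies, left by a genome duplication in fish. The 9 genes described here were *sox2*, *sox3* and *sox19a* (SoxB1), *sox4a*, *sox4b*, *sox11a* and *sox11b* (SoxC), and *sox9a* and *sox9b* (SoxE). They were taken by name from the rows of chromosomes 1 to 25 in a table of 37114 gene rows, and where a name was repeated the row with the higher mean was used, which applied to *sox4a* alone. The same chromosomes held 17 other Sox genes.

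RNA was sequenced from pooled eyes of zebrafish embryos at 36 h post fertilization (hpf), in 4 libraries labelled *flrt2*-KO and 4 WT libraries of about 40 eyes each. The mutants carried a 20 bp deletion made with CRISPR/Cas9 in *flrt2*, which encodes a membrane protein linked to FGF signaling, and came from a line crossed into the AB background, while WT titles carry the strain name AB and mutant titles CH1359, so line and genotype cannot be told apart. Pooling hides differences between embryos, and the methods describe crosses of heterozygous fish that gave all genotypes for phenotypic work, but do not say whether the sequenced *flrt2*-KO and WT eyes came from such clutches. The sample labels call the tissue retina, whereas the methods name eyes. The targeted gene did not check the labels. *flrt2* had 2.90, 3.99, 2.80 and 3.80 FPKM, fragments scaled to transcript length and library size, in the libraries labelled *flrt2*-KO, against 2.48, 2.33, 2.25 and 2.55 FPKM in WT (exact permutation test, two-sided, p = 0.0286, which is the least possible with 4 against 4). With equal column sums the groups overlapped (exact permutation test, two-sided, p = 0.0857), and limma gave a log2 fold change of 0.40 with an adjusted p of 0.110. The transcript was thus not lower in those libraries, so they are named by their label throughout, and every direction below rests on that label. The line was also genotyped by sequencing and checked by RT-qPCR in larval brain, which is not analysed here.

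The libraries held 13423932 to 14744977 reads in those labelled *flrt2*-KO and 14394658 to 14835885 reads in WT. Markers of retina were present, among them *rx1*, *rx2*, *rx3*, *six6b*, *pax6a*, *pax6b*, *lhx2b*, *atoh7* and *crx*. Markers of lens, pigment epithelium, periocular mesenchyme, surface epithelium and endothelium were also present. Among markers of brain outside the retina, *eomesa*, *nkx2.1*, *emx3* and *en2a* had 36.1, 23.1, 13.7 and 3.86 FPKM in the libraries labelled *flrt2*-KO. In WT these had 31.2, 20.8, 11.5 and 1.80 FPKM (means of 4). The brain markers *egr2b* and *hoxb1a* averaged 0.259 and 0.201 FPKM in the libraries labelled *flrt2*-KO and 0.181 and 0.372 FPKM in WT. Of the muscle markers, *mylpfa* was at 0 in all 8 libraries, *actc1b* averaged 3.20 FPKM in the libraries labelled *flrt2*-KO and 7.46 FPKM in WT, and *ckma* averaged 0.551 FPKM in the libraries labelled *flrt2*-KO and 2.20 FPKM in WT. Over all genes, 1740 were higher and 1548 lower in the libraries labelled *flrt2*-KO at an adjusted p under 0.05 (limma on log2(FPKM + 0.5), 21012 genes tested). With the title suffix that some libraries of both groups share as a block, these counts were 1134 and 992.

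All 9 Sox genes were strongly expressed. In WT they placed between 316 (*sox11a*) and 2025 (*sox4b*) among the 21012 genes tested when ordered by mean FPKM, and they passed the filter on low values in both groups. The smallest member count in any library was 701 reads, for *sox9a*, where counting alone gives a coefficient of variation of 3.78%. Together they made up 78.1% to 79.6% of the summed FPKM of all Sox genes in the libraries labelled *flrt2*-KO, and 77.8% to 78.9% in WT. The family was therefore dominated by these genes to a like degree in both groups.

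None of the 9 passed the test between the groups on its chromosome row. At an adjusted p under 0.05, 0 of 9 were higher and 0 of 9 lower, where 15.6% of all genes tested were called (8.28% higher and 7.37% lower). At an unadjusted p under 0.05 from the same limma fit, 1 of 9 passed (*sox3*), where 29.1% of all genes did. The libraries of the groups overlapped for every member, where 21.1% of all genes did not overlap (11.4% higher and 9.76% lower). The median log2 fold change of the 9 was -0.08, against -0.01 over all genes tested. It was 0.18 for the SoxB1 members, -0.21 for the SoxC members and -0.19 for the SoxE members. These were 0.18, -0.05 and -0.11 without WT replicate 1, and without replicate 3 labelled *flrt2*-KO the SoxB1 value was 0.06. The SoxB1 value was 0.11 without WT replicate 4, and the value of all 9 was -0.02 without WT replicate 1 and -0.15 without WT replicate 4. With equal column sums and with voom, the value of all 9 was also -0.15. In bulk RNA, fewer cells of a type and less RNA per cell cannot be told apart, and this holds for each level given here.

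**Figure D1:**
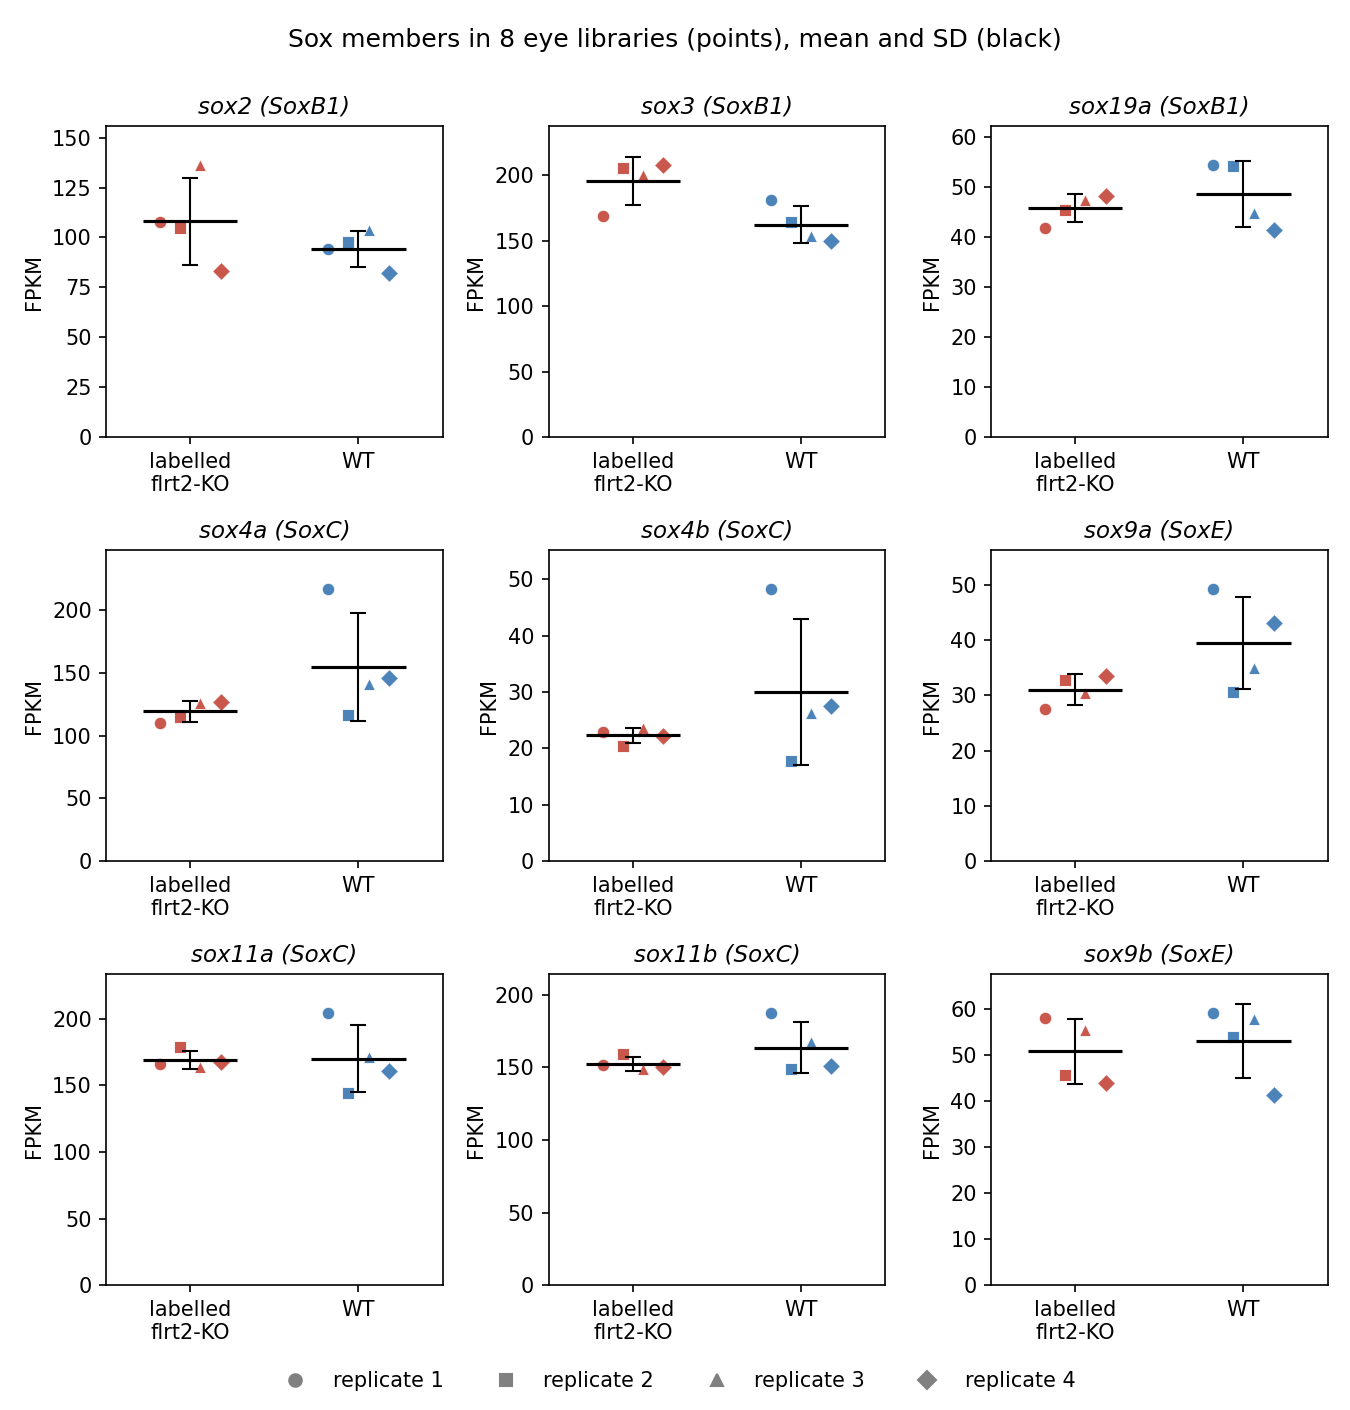
FPKM of each member (vertical axes, from 0) in the 4 libraries labelled *flrt2*-KO (red, left) and the 4 WT libraries (blue, right), with the symbol giving the replicate and black marks the mean and SD. The groups overlap in every panel, and WT replicate 1 is the highest of all libraries in 7 of 9 members, by a clear margin in *sox4a*, *sox4b*, *sox11a*, *sox11b* and *sox9a* and narrowly in *sox19a* and *sox9b*.

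Among the progenitor members, *sox3* was the most abundant. *sox3*, an early and broad neural progenitor gene, had 168, 205, 200.4 and 208 FPKM in the libraries labelled *flrt2*-KO, against 181, 164, 153 and 149.6 FPKM in WT. Replicates 2 to 4 labelled *flrt2*-KO lay above every WT library, and replicate 1 lay inside the WT range. Its mean was 195 ± 18.2 FPKM in the libraries labelled *flrt2*-KO and 162 ± 14.0 FPKM in WT (SD, n = 4 each). For *sox3*, the log2 fold change was 0.27, with a standard error of 0.104, a 95% interval of 0.04 to 0.50 and an adjusted p of 0.114 from limma. The log2 fold change of *sox3* was 0.20 with equal column sums and with voom. It had the smallest p of the 9, and it missed the threshold in each of the 19 alternatives run, whose adjusted p was 0.0655 to 0.322.

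*sox2*, which keeps retinal progenitors competent to divide and differentiate, had 108, 105, 136 and 83.5 FPKM in the libraries labelled *flrt2*-KO, against 94.4, 97.7, 104 and 82.2 FPKM in WT. Replicate 3 labelled *flrt2*-KO was the highest, and replicate 4 was the lowest library of each group. Its log2 fold change was 0.18, with a standard error of 0.144, a 95% interval of -0.14 to 0.50 and an adjusted p of 0.458 from limma. A change of up to 1.41-fold upward or to 0.907 of the WT level was inside this interval. The log2 fold change was 0.06 without replicate 3 labelled *flrt2*-KO, 0.29 without replicate 4 of that label and 0.11 without WT replicate 4. The SD of *sox2* on the log2 scale was 0.29 in the libraries labelled *flrt2*-KO, against 0.14 in WT. A longer transcript that runs over *sox2* on the same strand, FP102167.1, was also highest in replicate 3 labelled *flrt2*-KO, at 7.93 FPKM, against 3.59 to 4.88 FPKM elsewhere. How reads of the stretch it shares with *sox2* were counted is not given in the sources used here.

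*sox19a*, a SoxB1 gene of fish that is active in the early nervous system, had 42.0, 45.5, 47.5 and 48.3 FPKM in the libraries labelled *flrt2*-KO, against 54.4, 54.2, 44.8 and 41.4 FPKM in WT. All libraries labelled *flrt2*-KO fell inside the WT range. The log2 fold change on the chromosome row was -0.08, with a standard error of 0.113, a 95% interval of -0.33 to 0.17 and an adjusted p of 0.696 from limma. With libraries left out in turn it was -0.15 (without WT replicate 4) to -0.02 (without WT replicate 1 or, at -0.03, replicate 2). A second row with the same protein match is described next.

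The table also lists an unannotated row on an alternate contig of chromosome 5 (GRCz11), whose best protein match in the table is the same as that of *sox19a*, zebrafish Sox-19a. That the row is *sox19a* rests on this match and on its position, and the sequences were not compared here. An alternate contig holds another version of a stretch of a chromosome, so a gene there and its copy on the chromosome can share reads. Such a row could be matched to 1 of the 9 members, *sox19a*. It had 84.9, 86.3, 75.5 and 87.4 FPKM in the libraries labelled *flrt2*-KO, against 32.5, 44.8, 39.997 and 48.4 FPKM in WT. The lowest library labelled *flrt2*-KO lay well above the highest WT library. For this row the log2 fold change was 1.02, with a standard error of 0.127, a 95% interval of 0.735 to 1.297 and an adjusted p of 0.000546 from limma. It passed the threshold in 17 of the 17 alternatives that kept the row, with log2 fold changes of 0.91 to 1.09.

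Of the reads on both rows together, 72.1%, 70.8%, 67.0% and 69.8% lay on the alternate contig in the libraries labelled *flrt2*-KO, against 43.3%, 51.3%, 53.3% and 59.8% in WT. The share was 69.9% ± 2.18 in the libraries labelled *flrt2*-KO and 51.9% ± 6.82 in WT (SD, n = 4 each), and the groups did not overlap. The rows differ in length (2170 bases on the chromosome and 2770 on the contig), and the reads were not analysed here, so what sets the split between the rows was not tested.

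If both rows are taken as *sox19a*, with their reads added and divided by the length of the chromosome row, it had 150.4, 156, 144 and 159.9 FPKM in the libraries labelled *flrt2*-KO, against 96.0, 111, 95.9 and 103 FPKM in WT. The groups then stood apart, at 152 ± 6.94 FPKM in the libraries labelled *flrt2*-KO and 102 ± 7.37 FPKM in WT (SD, n = 4 each). The log2 fold change of the sum was 0.58, with a standard error of 0.0890, a 95% interval of 0.39 to 0.78 and an adjusted p of 0.0025 from limma. In this fit, 11.1% of 19511 genes were called (6.05% higher and 5.05% lower). The chromosome row is shorter than the contig row, so dividing by its length raises the sum, and more so where the contig share is higher. The adding of reads was chosen after the data were seen. *sox19a* was thus higher in the libraries labelled *flrt2*-KO or not called, depending on whether the contig was counted, and no other member had such a row.

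**Figure D2:**
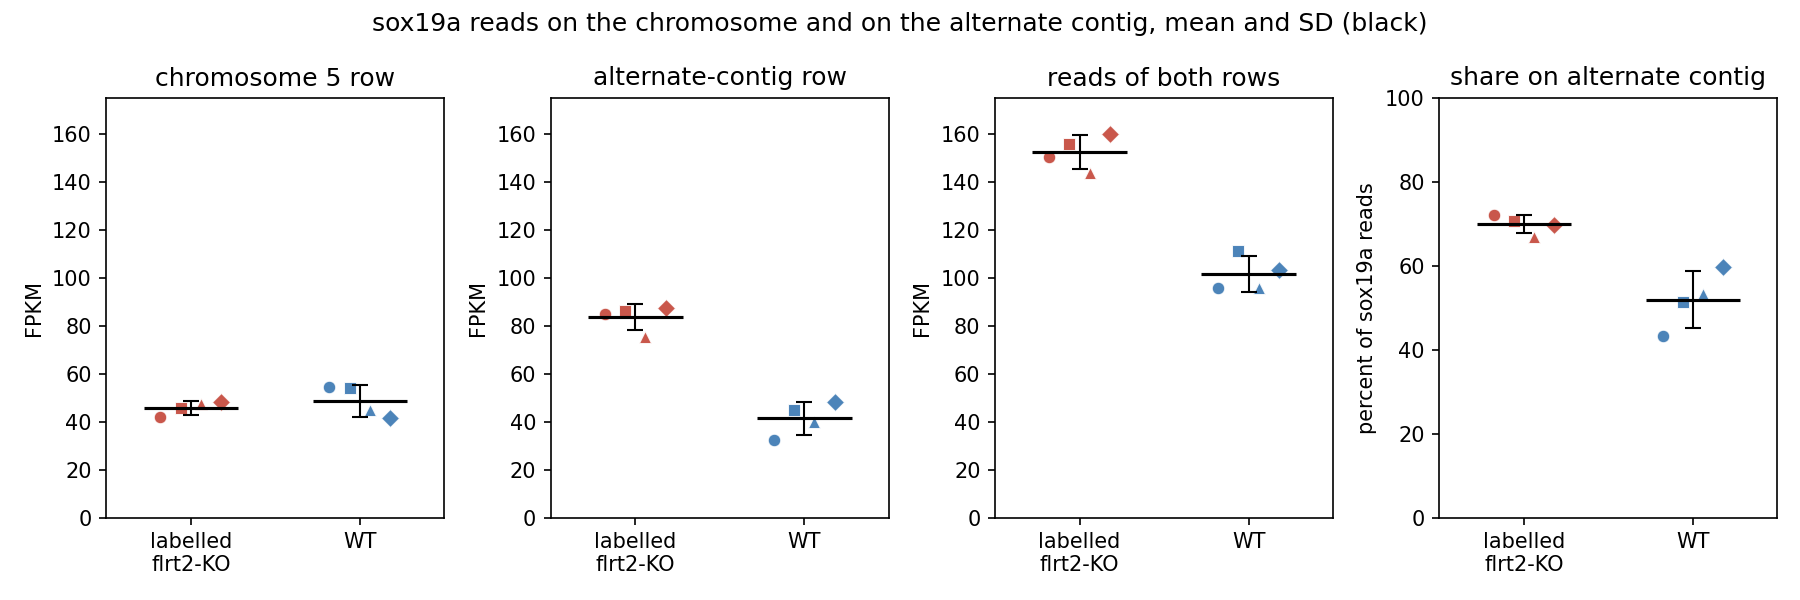
FPKM of *sox19a* on its chromosome row, on the matched alternate-contig row and with the reads of both added, and the percent of its reads on the alternate contig, in the libraries labelled *flrt2*-KO (red, left) and in WT (blue, right), with mean and SD in black. The chromosome row overlaps between the groups, and the other 3 panels do not.

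Among the differentiation members, the *sox11* pair was the steadiest between the groups. *sox11a*, a gene of newly formed neurons and of eye morphogenesis in zebrafish, had 166, 179, 164 and 168 FPKM in the libraries labelled *flrt2*-KO, against 204, 144, 171 and 161 FPKM in WT. The libraries labelled *flrt2*-KO lay within the spread of WT. The log2 fold change was 0.00, with a standard error of 0.112, a 95% interval of -0.25 to 0.25 and an adjusted p of 0.988 from limma. A difference beyond 1.19-fold either way was thus outside the interval.

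Its copy *sox11b* had 151, 159, 148 and 150.3 FPKM in the libraries labelled *flrt2*-KO, against 187, 149, 167 and 151 FPKM in WT. For *sox11b* the log2 fold change was -0.10, with a standard error of 0.0973, a 95% interval of -0.31 to 0.12 and an adjusted p of 0.560 from limma. It was -0.03 without WT replicate 1. An antisense transcript over *sox11b*, BX248324.1, had 15.6 to 19.4 FPKM in the libraries labelled *flrt2*-KO and 16.7 to 19.96 FPKM in WT. Whether counting used the strand is not given in the sources used here, so reads of the pair cannot be told apart where they overlap. Across libraries, *sox11a* and *sox11b* varied together. The Pearson correlation of their deviations from the group means was 0.960 over 8 libraries (Spearman 0.976), and 0.925 without the 2 libraries farthest from the median of *sox11a*, as a description. In the libraries labelled *flrt2*-KO the ratio of *sox11a* to *sox11b* was 1.11 ± 0.0122, against 1.04 ± 0.0547 in WT (SD, n = 4 each), and the groups did not overlap.

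The *sox4* pair showed its widest spread in WT. *sox4a*, which acts in differentiating neurons alongside the *sox11* genes, had 110.1, 115, 126 and 127 FPKM in the libraries labelled *flrt2*-KO, against 217, 116, 141 and 146 FPKM in WT. WT replicate 1 stood above all others, and WT replicate 2 fell inside the range of the libraries labelled *flrt2*-KO. For *sox4a* the log2 fold change was -0.34, with a standard error of 0.167, a 95% interval of -0.71 to 0.03 and an adjusted p of 0.213 from limma. Without WT replicate 1 it was -0.16. A second row named *sox4a* was at or near 0 in all libraries. An antisense transcript, BX957317.1, had 2.51 FPKM in WT replicate 1 and 0.323 FPKM in WT replicate 2, the highest and the lowest WT libraries of *sox4a* itself. Its row overlaps that of *sox4a*, and how reads of the shared stretch were counted is not given in the sources used here.

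*sox4b* was the least abundant member, with 22.9, 20.504, 23.7 and 22.2 FPKM in the libraries labelled *flrt2*-KO, against 48.2, 17.8, 26.3 and 27.6 FPKM in WT. Its highest and lowest libraries were both WT. Its log2 fold change was -0.33, with a standard error of 0.240, a 95% interval of -0.86 to 0.20 and an adjusted p of 0.407 from limma. Without WT replicate 1 it was -0.07, and without WT replicate 2 it was -0.54. The interval, the widest of the 9, held a level of 0.551 times that of WT as well as 1.15 times it. The ratio of *sox4a* to *sox4b* was 4.80 to 5.72 in the libraries labelled *flrt2*-KO and 4.49 to 6.55 in WT, so the a copy dominated in every library.

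The SoxE pair is used in cartilage, neural crest and glia, with *sox9a* needed for the head cartilages of zebrafish. *sox9a* had 27.4, 32.8, 30.3 and 33.5 FPKM in the libraries labelled *flrt2*-KO, against 49.2, 30.6, 34.9 and 43.1 FPKM in WT. WT replicates 1, 3 and 4 were above every library labelled *flrt2*-KO, and WT replicate 2 was not. For *sox9a* the log2 fold change was -0.32, with a standard error of 0.148, a 95% interval of -0.65 to 0.01 and an adjusted p of 0.179 from limma. Without WT replicate 1 it was -0.21.

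*sox9b*, expressed in retinal progenitors and later in Müller glia, had 58.1, 45.8, 55.6 and 44.0 FPKM in the libraries labelled *flrt2*-KO, against 59.2, 54.0, 57.9 and 41.4 FPKM in WT. The ranges were nearly the same. For *sox9b* the log2 fold change was -0.06, with a standard error of 0.140, a 95% interval of -0.37 to 0.25 and an adjusted p of 0.828 from limma. The Pearson correlation of the deviations of *sox9a* and *sox9b* was -0.328 over 8 libraries (Spearman -0.310). It was -0.943 without the 2 libraries farthest from the median of *sox9a*, and -0.747 without WT replicate 1. That of *sox9b* and *sox2* was 0.720 (Spearman 0.619) over 8 libraries, and 0.815 without the 2 farthest in *sox2*. Both are descriptions, and libraries far out in *sox9b* alone were kept. The ratio of *sox9b* to *sox9a* was 1.31 to 2.12 in the libraries labelled *flrt2*-KO and 0.960 to 1.77 in WT.

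**Figure D3:**
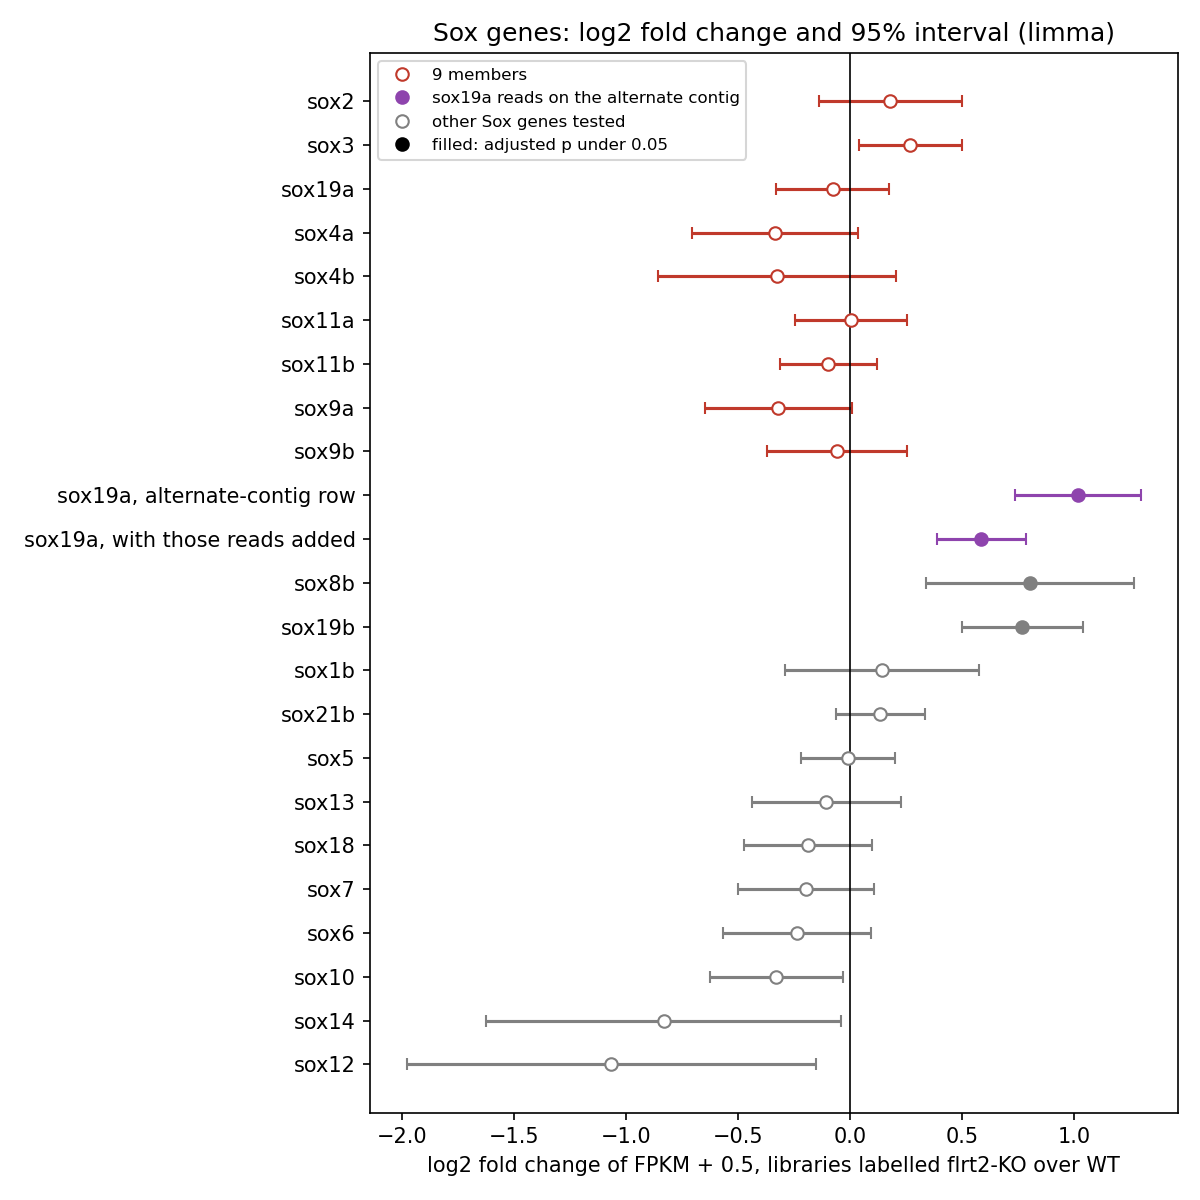
Log2 fold change of FPKM + 0.5, libraries labelled *flrt2*-KO over WT, with 95% intervals from limma (horizontal axis), for the 9 members (red), *sox19a* on and with the alternate contig (purple) and the 12 other Sox genes tested (gray), where filled points have an adjusted p under 0.05. All 9 members are open, and *sox19b*, *sox8b* and both *sox19a* values that use the contig are filled, all to the right of 0. The filter chose *sox8b* through the libraries labelled *flrt2*-KO, so its filled point is not read as a result.

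The order of the members by mean FPKM was alike in both groups apart from *sox3*. In the libraries labelled *flrt2*-KO it ran *sox3*, *sox11a*, *sox11b*, *sox4a*, *sox2*, *sox9b*, *sox19a*, *sox9a* and *sox4b*. In WT *sox11a* and *sox11b* came before *sox3*, and the others kept their order. FPKM is per length, so levels can be set side by side between genes. In the libraries labelled *flrt2*-KO, *sox3* was above *sox11a* in 4 of 4 libraries though their ranges overlapped, *sox4a* and *sox2* overlapped, and so did *sox9b* and *sox19a*, while the other neighbours did not. In WT, *sox11a*, *sox11b*, *sox3* and *sox4a* overlapped each with the next, *sox4a* and *sox2* did not, *sox2* and *sox9b* did not, and *sox9b*, *sox19a*, *sox9a* and *sox4b* overlapped each with the next. With the contig reads added, the mean of *sox19a* was 152 FPKM in the libraries labelled *flrt2*-KO and 102 FPKM in WT. That sum divides the contig reads by 2170 bases and not by the 2770 bases of their own row. It was therefore not placed in the order.

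Progenitor and differentiation members were then set against each other within each library, where a scaling factor of a library cancels. The mean log2(FPKM + 0.5) of *sox2*, *sox3* and *sox19a* minus that of the 4 SoxC members was 0.03, 0.13, 0.24 and 0.03 in the libraries labelled *flrt2*-KO, against -0.53, 0.22, -0.19 and -0.31 in WT. WT replicate 2 lay among the libraries labelled *flrt2*-KO, and the other WT libraries lay below them. The difference of the group means was 0.31, and as a score over chosen genes it was given no test. Without WT replicate 1 it was 0.20, and without WT replicate 2 it was 0.45. In FPKM, the SoxB1 members summed to 318 to 384 in the libraries labelled *flrt2*-KO and to 273 to 330 in WT, and the SoxC members to 451 to 473 in the libraries labelled *flrt2*-KO and to 427 to 656 in WT. The SoxB1 members thus made up 42.9% ± 1.75 of the summed FPKM of both subgroups in the libraries labelled *flrt2*-KO and 37.4% ± 3.83 in WT (SD, n = 4 each), with overlapping ranges.

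With the contig reads of *sox19a* added, the same log2 difference was 0.61 to 0.77 in the libraries labelled *flrt2*-KO and -0.26 to 0.57 in WT. The groups then did not overlap, by a small margin at WT replicate 2. Within single pairs of genes, the ratio of *sox3* to *sox4a* was 1.53 to 1.79 in the libraries labelled *flrt2*-KO and 0.835 to 1.41 in WT, and that of *sox3* to *sox19a* on its chromosome row was 4.02 to 4.50 in the libraries labelled *flrt2*-KO and 3.04 to 3.61 in WT. Both pairs of ranges were apart. With the contig reads added, the log2 fold change was 0.58 for *sox19a* and 0.27 for *sox3*. The ratio of *sox3* to *sox19a* was then lower on average in the libraries labelled *flrt2*-KO, the opposite direction. The ratio of *sox2* to *sox11a* was 0.497 to 0.831 in the libraries labelled *flrt2*-KO and 0.462 to 0.678 in WT, and it overlapped. These ratios were among 7 computed, all on the chromosome rows, of which 3 had groups apart.

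**Figure D4:**
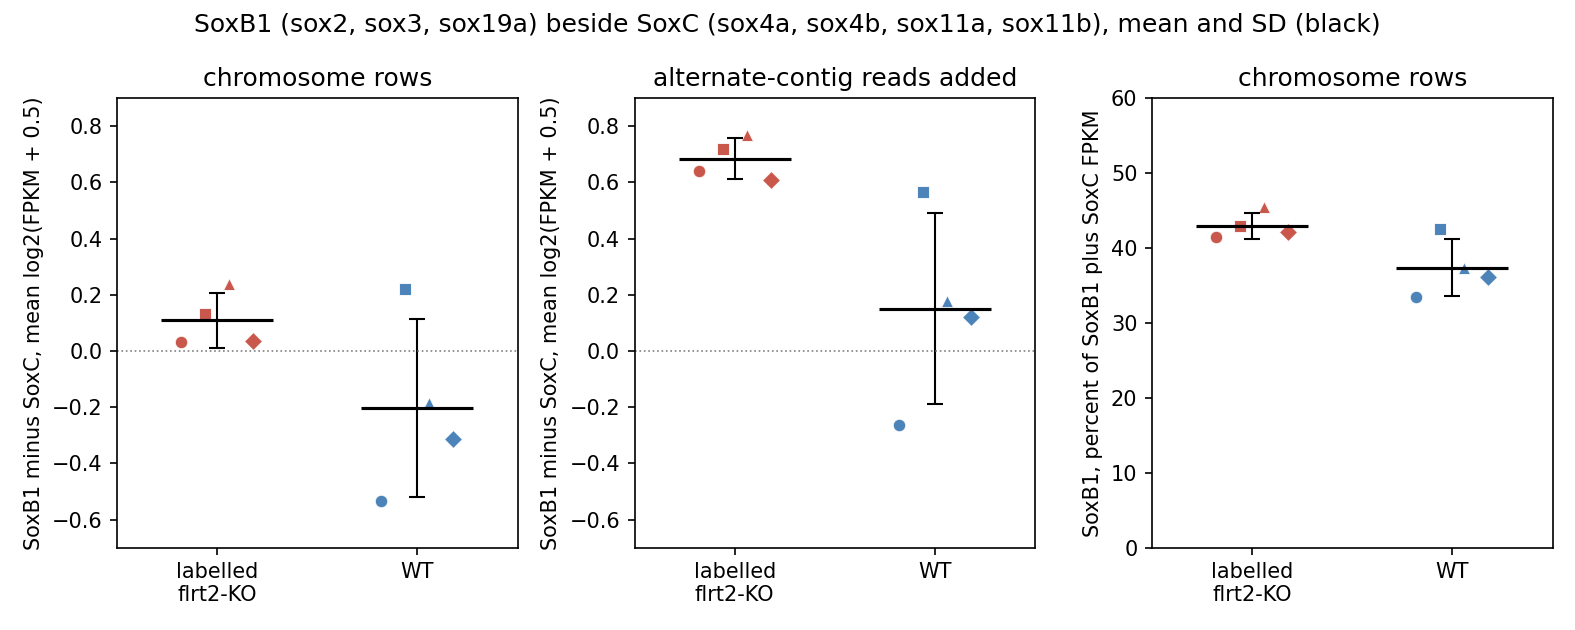
SoxB1 minus SoxC members as a difference of mean log2(FPKM + 0.5), on the chromosome rows (left) and with the alternate-contig reads of *sox19a* added (middle), and the SoxB1 percent of SoxB1 plus SoxC FPKM (right), by library, with libraries labelled *flrt2*-KO in red on the left of each panel, WT in blue, and mean and SD in black. The libraries labelled *flrt2*-KO lie close together at 0.03 to 0.24 in the left panel, while WT runs between -0.53 and 0.22.

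The SD of log2(FPKM + 0.5) was smaller in the libraries labelled *flrt2*-KO than in WT for 7 of 9 members and larger for *sox2* and *sox3*. For *sox11a* it was 0.06 in the libraries labelled *flrt2*-KO and 0.21 in WT, and for *sox11b* it was 0.04 in the libraries labelled *flrt2*-KO and 0.15 in WT. For *sox4b* it was 0.09 in the libraries labelled *flrt2*-KO and 0.58 in WT. The median SD over 9139 genes with a mean of at least 5 FPKM was 0.18 in the libraries labelled *flrt2*-KO and 0.19 in WT, and the SD values were given no test. WT replicates 1 and 2 lay farthest out. WT replicate 1 was above its group mean by 0.52 (*sox4a*), 0.77 (*sox4b*), 0.27 (*sox11a*), 0.20 (*sox11b*) and 0.34 (*sox9a*) on the log2 scale, and WT replicate 2 was below its group mean for each of the 5, with deviations of -0.65 (*sox4b*) to -0.13 (*sox11b*). *sox4a* and *sox4b* correlated at a Pearson r of 0.961 over 8 libraries (Spearman 0.690), and at 0.457 without the 2 libraries farthest from the median of *sox4a*. Their joint variation thus rested largely on those libraries, whereas that of *sox11a* and *sox11b* did not.

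The same library was high in neuronal genes. Its summed FPKM was 3212 for the pan-neuronal list, against 1998 to 2525 in the other WT libraries, and 324 for the ganglion cell list, against 207 to 268 in the other WT libraries. Beyond the SoxC members, *sox12* and *sox14* were highest there, and so were *sox9a*, *sox9b*, *sox19a*, *sox6* and *sox10*. The summed lists of brain outside the retina (532 FPKM) and of muscle (49.3 FPKM) were also highest in this library. The part of the neuronal make-up of this library in the SoxC values was not tested.

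**Figure D5:**
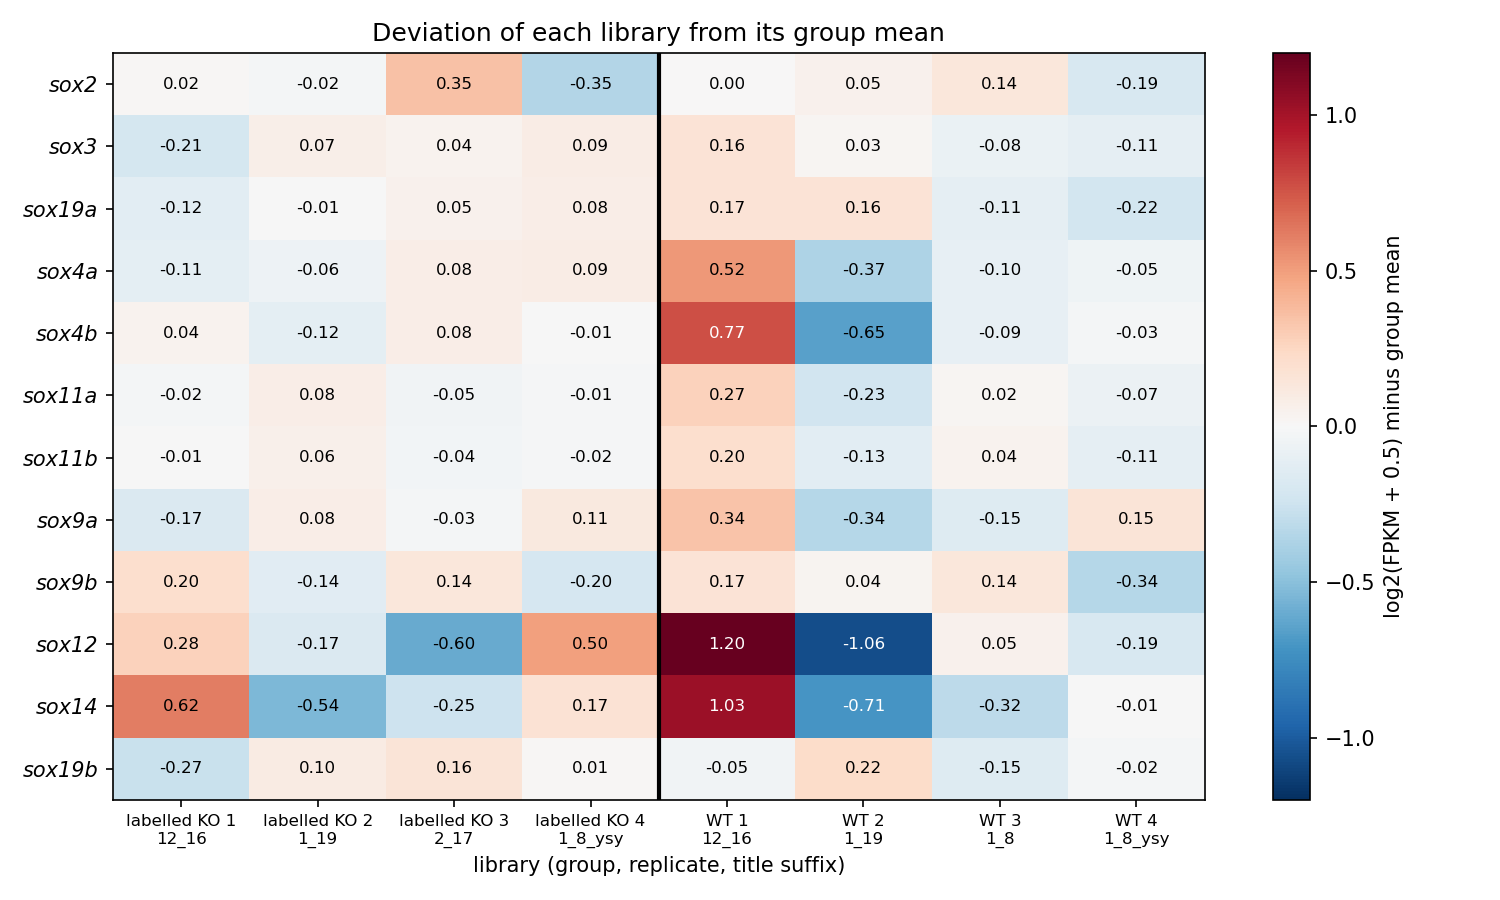
Deviation of log2(FPKM + 0.5) of each library (columns, libraries labelled *flrt2*-KO left of the line and WT right of it, with replicate and title suffix) from its group mean, for the 9 members and *sox12*, *sox14* and *sox19b* (rows), on a scale from blue (below the mean) to red (above). WT 1 is above and WT 2 below the mean in all 4 SoxC members, *sox9a*, *sox12* and *sox14*, and the SoxC rows are pale in the libraries labelled *flrt2*-KO.

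Some libraries of the groups share a title suffix, which gave 3 pairs (replicates 1, 2 and 4). Within pairs, *sox2* was higher in the library labelled *flrt2*-KO in 3 of 3, by 0.19, 0.10 and 0.02 on the log2 scale. *sox4a* was lower in 3 of 3, with differences of -0.97, -0.02 and -0.20. The first of these pairs holds WT replicate 1 and carried most of that difference. The other members, on their chromosome rows, went both ways, higher in 1 or 2 of the 3 pairs. With the contig reads added, *sox19a* was higher in 3 of 3, by 0.65, 0.48 and 0.63. Taken as a block in limma, the suffix left 0 of 9 members called, where 10.1% of all genes were called.

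Among the 17 other Sox genes, 12 passed the filter. Of those 12, 2 were called higher and 0 lower in the libraries labelled *flrt2*-KO. Over all genes tested, 15.6% were called (8.28% higher and 7.37% lower). Of the 2, *sox8b* passed the filter only through the libraries labelled *flrt2*-KO, so its call is not read as a result. *sox19b*, the duplicate of *sox19a* and a maternally supplied SoxB1 gene of zebrafish, had 35.3, 45.7, 47.5 and 43.1 FPKM in the libraries labelled *flrt2*-KO, against 24.0, 29.1, 22.3 and 24.4 FPKM in WT. Each library labelled *flrt2*-KO was above every WT library. The log2 fold change was 0.77, with a standard error of 0.122, a 95% interval of 0.50 to 1.04 and an adjusted p of 0.00216 from limma, and it passed in 19 of 19 alternatives. No alternate-contig row was matched to *sox19b*. Its change was therefore in the direction of *sox19a* with the contig reads and was read from a single row. *sox8b*, a low SoxE gene, had 0.506 to 0.944 FPKM in the libraries labelled *flrt2*-KO and 0.102 to 0.353 FPKM in WT. It reached 0.5 FPKM in the libraries labelled *flrt2*-KO alone, so the filter chose it for the group where it was high.

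Of the other Sox genes with a mean of at least 5 FPKM, *sox12* and *sox14* differed most and were not called. *sox12*, named after a mammalian SoxC gene, had 21.4, 15.6, 11.4 and 25.02 FPKM in the libraries labelled *flrt2*-KO, against 86.6, 17.7, 38.8 and 32.6 FPKM in WT. Its log2 fold change was -1.07 (95% interval -1.98 to -0.15, adjusted p = 0.113 from limma), -0.67 without WT replicate 1, and -1.42 without WT replicate 2, where it passed (adjusted p = 0.0251). *sox14*, a SoxB2 repressor gene, had 10.8, 4.60, 5.71 and 7.81 FPKM in the libraries labelled *flrt2*-KO, against 26.4, 7.56, 10.1 and 12.6 FPKM in WT. Its log2 fold change was -0.83 (95% interval -1.62 to -0.04, adjusted p = 0.151 from limma), -0.49 without WT replicate 1, and -0.85 with the suffix as a block, where it passed (adjusted p = 0.0291). Both genes followed the pattern of the *sox4* genes across WT, with replicate 1 high and replicate 2 low.

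The remaining Sox genes of that level were not called either. *sox1b* (SoxB1) averaged 37.2 ± 11.7 FPKM in the libraries labelled *flrt2*-KO and 32.9 ± 5.03 FPKM in WT (SD, n = 4 each), with a 95% interval of the log2 fold change of -0.29 to 0.57. *sox21b* (SoxB2) averaged 43.4 ± 2.57 FPKM in the libraries labelled *flrt2*-KO and 39.5 ± 2.36 FPKM in WT (SD, n = 4 each), with an interval of -0.07 to 0.33. *sox10*, a neural crest gene, averaged 6.15 ± 0.370 FPKM in the libraries labelled *flrt2*-KO and 7.93 ± 1.32 FPKM in WT (SD, n = 4 each), and its groups did not overlap (log2 fold change -0.33, adjusted p = 0.130 from limma). The SoxD genes *sox5*, *sox6* and *sox13* and the SoxF gene *sox18*, an endothelial regulator, had log2 fold changes of -0.24 to -0.01 with intervals that held 0. *sox1a* was at or near 0 on its chromosome row in all libraries, and a matched alternate-contig row held its reads. That row had 2.67 to 4.57 FPKM in the libraries labelled *flrt2*-KO and 6.27 to 7.15 FPKM in WT (log2 fold change -0.76, adjusted p = 0.0089 from limma), so SoxB1 genes read from contigs did not move one way.

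Genes that work with or under these factors were counted from lists. Over all genes tested, 8.28% were higher and 7.37% lower. Of 8 tested partners of SoxB1 factors (POU3 genes, *pou5f3*, *pax6a*, *pax6b* and *chd7*), 0 were higher and 1 lower, with a median log2 fold change of 0.14. The count was 2 higher and 1 lower without WT replicate 1, and with contig reads added the median was -0.06. The lower gene was *pou3f2b*, a POU partner of Sox2 in neural cells, with 3.60 ± 1.04 FPKM in the libraries labelled *flrt2*-KO and 10.6 ± 4.57 FPKM in WT (SD, n = 4 each; log2 fold change -1.37, adjusted p = 0.0116 from limma). Of 31 tested retinal progenitor genes, 6 were higher and 3 lower, with a median of 0.27. With libraries left out in turn, 3 (without replicate 1 or 3 labelled *flrt2*-KO, or WT replicate 4) to 10 (without WT replicate 2) were higher and 1 to 3 lower. Among them *nes*, an intermediate filament of progenitors, was higher by 0.53, *mcm4*, part of the replication helicase, by 0.68, and *six3a*, an eye field gene, by 0.95, while *six7* was lower, with -2.43. *fabp7a* and *six6b*, also lower, are counted in the glia and retina identity lists as well. Without WT replicate 1, 4 genes of the list were higher and 1 lower. The calls of this mixed list thus went both ways. Its summed FPKM was 3891 to 4782 in the libraries labelled *flrt2*-KO and 3359 to 4485 in WT. With the title suffix as a block, 3 of its genes were higher and 3 lower.

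Genes of differentiating neurons were counted in the same way. Of 25 tested pan-neuronal genes, 0 were higher and 1 lower (*tuba1a*, a neuronal tubulin, 608 ± 133 FPKM in the libraries labelled *flrt2*-KO and 1096 ± 182 FPKM in WT, adjusted p = 0.0068 from limma), with a median log2 fold change of -0.17, and of -0.01 without WT replicate 1. With libraries left out in turn, 1 to 4 were lower. Their summed FPKM was 1544 to 2134 in the libraries labelled *flrt2*-KO and 1998 to 3212 in WT. Of 17 tested ganglion cell genes, 1 was higher and 7 lower, with a median of -0.86, and of -0.66 without WT replicate 1. The shares over all genes tested were 8.28% higher and 7.37% lower. Leaving out libraries in turn gave 6 to 10 lower of the 17. With the title suffix as a block, 0 were higher and 3 lower, where 10.1% of all genes were called. *atoh7*, the factor that allows ganglion cells to form, had 29.7 ± 6.47 FPKM in the libraries labelled *flrt2*-KO and 83.6 ± 16.8 FPKM in WT (SD, n = 4 each; log2 fold change -1.48), and *alcama*, *barhl2* and *rbpms2b* were lower by log2 fold changes of -0.89, -1.51 and -1.22. The summed ganglion cell genes did not overlap, at 124 to 163 FPKM in the libraries labelled *flrt2*-KO and 207 to 324 FPKM in WT. *sox4a*, *sox4b*, *sox11a* and *sox11b*, whose mouse counterparts are needed for ganglion cells, did overlap and were not called.

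Around Sox9, 0 of 13 tested cartilage matrix genes were higher or lower in limma, with a median log2 fold change of -0.23, and up to 3 were lower with libraries left out in turn. Of 17 tested genes of radial and Müller glia, 1 was higher (*gfap*, 54.1 ± 5.58 FPKM in the libraries labelled *flrt2*-KO and 39.3 ± 3.79 FPKM in WT) and 3 were lower (*fabp7a*, *fabp7b* and *apoeb*), with a median of -0.05, and 0 to 1 were higher and 1 to 3 lower with libraries left out in turn. The 5 lower genes among 14 of retina identity were *atoh7*, *crx*, *otx2b*, *rorb* and *six6b*, and their list had a median of -0.26. Beside these 3 lists, 8.28% of all genes tested were higher and 7.37% lower.

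Markers of other tissues were summed by library. Summed FPKM of the periocular mesenchyme and neural crest list, where *sox9* and *sox10* are also used, was 193 to 239 in the libraries labelled *flrt2*-KO and 254 to 305 in WT, with 1 higher and 3 lower of 16 tested, where 8.28% of all genes were higher and 7.37% lower. Without WT replicate 1, and with contig reads added, 1 was higher and 1 lower, and 1 to 3 were lower with each library left out in turn. The blood list summed to 643 to 1401 FPKM in the libraries labelled *flrt2*-KO and to 1533 to 2602 FPKM in WT, with 0 higher and 4 lower of 10 (3 to 5 with libraries left out in turn, and 2 with contig reads added). The endothelium list summed to 70.6 to 81.0 FPKM in the libraries labelled *flrt2*-KO and to 93.3 to 102 FPKM in WT, with 0 higher and 3 lower of 12 (1 to 3 with libraries left out in turn). These 3 lists did not overlap between the groups, and neither did that of retina identity (421 to 483 FPKM in the libraries labelled *flrt2*-KO and 521 to 739 FPKM in WT). A sum weighs abundant genes most. The median log2 fold change was -0.24 for periocular mesenchyme and neural crest, -0.63 for blood and -0.09 for endothelium. In the endothelium list, *cldn5b*, the call with the smallest p, averaged 14.5 FPKM in the libraries labelled *flrt2*-KO and 26.5 FPKM in WT. The endothelial markers *kdrl*, *cdh5* and *fli1a* differed less. They averaged 7.98, 9.89 and 19.4 FPKM in the libraries labelled *flrt2*-KO and 7.43, 10.8 and 20.5 FPKM in WT. The list of brain outside the retina, a tissue that also expresses SoxB1 genes, summed to 447 to 471 FPKM in the libraries labelled *flrt2*-KO and to 412 to 532 FPKM in WT, with 0 of 24 called. Lists of lens (1 higher and 2 lower of 18), pigment epithelium (1 and 0 of 14), surface epithelium (0 and 2 of 13) and muscle (0 and 2 of 9) overlapped in their sums. With libraries left out in turn their lower calls numbered 1 to 3, 0 to 1, 1 to 4 and 1 to 4, in that order of lists. Adding contig reads gave 0 higher and 0 lower for lens and for pigment epithelium. It gave 1 and 1 of 16 for surface epithelium and 0 and 2 for muscle. The 2 muscle calls were of *ckma* and *myl1*, at 0.181 to 1.27 and 0.396 to 0.875 FPKM in the libraries labelled *flrt2*-KO. In WT they had 1.57 to 2.70 and 1.03 to 3.87 FPKM. WT alone thus met the filter of 0.5 FPKM in 4 libraries, the group where both were high, so these calls are not read as a result. The part of such tissues in the Sox values was not tested.

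The genes whose libraries deviated most like a member were named for *sox2*, *sox11a* and *sox9b*, from 8144 annotated genes with a mean of at least 5 FPKM. For *sox2* they were *h2afvb*, a histone H2A.Z gene, *bag1* and *GHITM*, with Pearson r of 0.988, 0.981 and 0.975 over 8 libraries. For *sox11a* they included *ankle2* and *zgc:158398*, with 0.981 and 0.976. For *sox9b* they were *foxk2*, *fabp11b* and *si:ch73-352p4.5*, with 0.971, 0.960 and 0.958. The best of so many genes is high by selection at 8 libraries, so these values were given no test. No Sox gene was among the 3 most like *sox2*, *sox11a* or *sox9b*.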

How the data were processed

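RNA of pooled zebrafish eyes was measured in 8 libraries. The authors filtered reads of 150 bp, mapped them with HISAT2 2.0.5 on GRCz11, summarized them by gene using featureCounts 1.5.0-p3, ran DESeq2 and deposited FPKM values, the only unit used here. The kit is NEBNext Ultra in the methods and TruSeq in the labels, and neither source says whether counting used the strand. Whole reads could be recovered from FPKM and length for 100% of entries (tolerance 1e-06), which gave the depth of each library, and voom of limma on these reads was an alternative. The factor between the library size behind the FPKM and the sum of reads is not given in the sources used here. It was 0.930 to 1.02 in the libraries labelled *flrt2*-KO and 0.996 to 1.07 in WT. The median log2 fold change of all genes shifted by -0.06 with equal column sums and by -0.07 with voom.

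Values were tested as log2(FPKM + 0.5) with limma 3.58.1 in R 4.3.3 (intensity trend, robust prior), for 21012 genes that reached 0.5 FPKM in 4 or more of 8 libraries, with Benjamini-Hochberg adjustment over all of them. Fold changes on this scale understate those of low genes. The authors' methods used a count test (DESeq2), and limma was used here because the unit is FPKM. The steps were tested on simulated data. The text names all 9 members, *flrt2*, other Sox genes that passed or had a mean of at least 5 FPKM, up to 4 genes per list with the smallest p, and the 3 genes most like *sox2*, *sox11a* and *sox9b*, apart from items not reported here. *sox1a*, *sox12* without a replicate, the antisense rows and the contig rows were looked at after their values were seen. The members and lists were chosen with earlier results of these data known.

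Contig rows were matched to a gene by the same protein match within 0.2 Mb on the same chromosome number (2440 rows). Replicates are numbered in accession order. The labels do not say whether the pools came from separate clutches, so p-values measure the spread between these pools. Deviations of libraries from their group means were correlated across genes, which are no independent replicates. The r was 0.141, 0.122 and 0.106 in the 3 pairs of equal title suffix and -0.223 to 0.112 in unlike pairs. These values overlapped, so they do not settle whether the suffix marks a batch. It served as a block in an alternative. Python 3.11.15 with pandas 2.3.3 and matplotlib 3.10.9 was used for tables and plots. Alternatives were 2 other pseudocounts, 2 filters, 2 scalings, the block, no trend, voom, chromosomes 1 to 25 alone, each library left out, a threshold of 0.01 and, added after the data were seen, contig reads.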

Additional observations from a re-analysis of the deposited data

Results flagged for a closer look

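Within groups of 4 libraries, 46 sets of values were checked for a library far from the others by Dixon's test, and 2 stood out, where chance gives about 1 in 20. For *sox5*, a SoxD gene, replicate 1 labelled *flrt2*-KO had 41.6 FPKM, and the other libraries labelled *flrt2*-KO had 35.99 to 36.9 FPKM. For *sox18*, a SoxF gene of endothelium, replicate 3 labelled *flrt2*-KO had 39.1 FPKM, and the others with that label had 30.1 to 31.3 FPKM. No set of a member stood out, although WT replicate 1 was the highest library of 7 of 9 members, that is of all but *sox2* and *sox3*.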

How the results depend on the processing

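The count of members called was 0 higher and 0 lower in every alternative but 1. With the contig reads added, 1 member was higher, *sox19a*, whose log2 fold change turned to 0.58. The values of *sox11a*, near 0, changed sign with equal column sums (-0.065), with voom (-0.064) and with libraries left out (-0.072 to 0.095), and those of *sox9b* with libraries left out (-0.17 to 0.0078). None of these passed the threshold. SoxB1 minus SoxC was 0.20 to 0.45 with libraries left out, 0.53 with the contig reads, and 0.31 under the other pseudocounts and scalings. The other Sox genes numbered 1 higher with a filter at 1 FPKM and at an adjusted p under 0.01, and 1 to 2 with libraries left out. *sox19b* was called in each of these, and any other call was of *sox8b*, which the filter chose. The other Sox genes numbered 1 lower with the contig reads (*sox1a*) and 0 to 1 with libraries left out. With the title suffix as a replicate block, 1 was higher and 1 lower, no call of a member changed, and the estimate rested on 3 pairs. Over all genes, more were lower than higher with equal column sums (1460 higher and 1767 lower) and with voom (1502 and 1803), the other way from the counts reported. Counts higher and lower were 1134 and 992 with the block, 1038 and 901 for annotated genes of chromosomes 1 to 25, 866 and 729 at an adjusted p under 0.01, 1180 and 986 with the contig reads, and 1290 to 1689 and 1043 to 1479 with libraries left out. The *flrt2* difference was 0.853 FPKM with equal column sums (exact permutation test, p = 0.0857). The causes were not tested. With 4 libraries per group the intervals of the members' log2 fold changes spanned 0.43 to 1.06, so small changes could be missed.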
